A study of Xenopus tropicalis with 4 samples.

Results

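Every one of the 9 genes for the sliding clamp, its loader and the single-strand binding protein RPA carried an E2F1 region at one of its ends in Xenopus tropicalis embryos at stage 8, against 34.9% of all protein-coding genes. None carried an OTX1 region there, a count near the 7.18% of all genes that did. The set holds pcna, rfc1, rfc2, rfc3, rfc4, rfc5, rpa1, rpa2 and rpa3. These are 9 of the 21749 protein-coding genes annotated on the 10 chromosomes. They were chosen by name, with earlier results of these data known. With peaks in a high local background (above 2 times the lowest of their list) left out, 1 of them kept E2F1 at an end. Of all genes, 11.3% did. For each gene, ChIP-seq peaks inside it or within 10 kb were taken from 2 lists per factor, and a region was counted where peaks of both replicates overlapped.

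PCNA, the product of pcna, is the ring that slides along DNA and holds the replicative polymerases on their template. Replication factor C, built from the products of rfc1 to rfc5, uses ATP to open this ring and close it around primed DNA. RPA, built from the products of rpa1, rpa2 and rpa3, coats the single strands that unwinding exposes. In cultured animal cells, genes of S phase are textbook targets of E2F factors. The cleaving frog embryo replicates its genome in quick succession on proteins and mRNAs that the egg supplied.

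The samples were whole embryos at stage 8, a blastula stage, and the series asked how the maternal factors E2F1 and OTX1 act on early zygotic genes. The 2 E2F1 samples came from embryos given E2F1 mRNA together with an MO (genotype label E2F1 Rescue), and were precipitated with an antibody to HA. The 2 OTX1 samples came from embryos given OTX1 mRNA together with an MO (genotype label OTX1 Rescue), and were precipitated with an antibody to the Myc tag. MO commonly stands for a morpholino, an antisense oligonucleotide, whose target is unnamed in the labels. All 4 samples therefore carried an injected mRNA and an MO, and a library from embryos without them was not analysed here. Both antibodies are directed at tags, so the peaks are taken to describe the supplied protein. This was not checked against a library without it. Peak lists hold no RNA, so the cells of the embryos could not be checked against marker genes.

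The E2F1 lists held 16770 and 20385 peaks, and the OTX1 lists 27755 and 29098. Summits rested on a median of 15 to 16 fragments in each list, so weak peaks carry a counting error of several fragments. The least significant peak had a q-value of 0.0492 and 0.0470 in the E2F1 lists and of 0.00999 and 0.00977 in the OTX1 lists, so the factors were not called at the same threshold. The labels do not tell whether replicates came from different embryos, so their spread may be technical.

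Of the 9 genes, 9 had a reproducible E2F1 region with its summit within 1 kb of an annotated gene end, against 34.9% of all protein-coding genes. Each list showed it alone, with 9 of 9 genes in replicate 1, where 37.4% of all genes had such a peak, and 9 of 9 in replicate 2, where 41.5% did. For a region anywhere within 10 kb, the count was again 9, against 53.9% of all genes. For the strongest region at an end of each gene, the region's summit lay 5 to 139 bp from that end, with a median of 56 bp. The median was 123 bp for all 6798 E2F1 regions at gene ends, weak ones included. In these strongest regions the summits of the replicates lay 5 to 48 bp apart, with a median of 16 bp, against 62 bp for all 6798 regions. A second, weaker region at the other end of rpa2 is not in these values. It lay 442 bp from that end, with replicate summits 158 bp apart. No test was made of these differences, since the genes had been chosen with results of these data known.

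**Figure D1:**
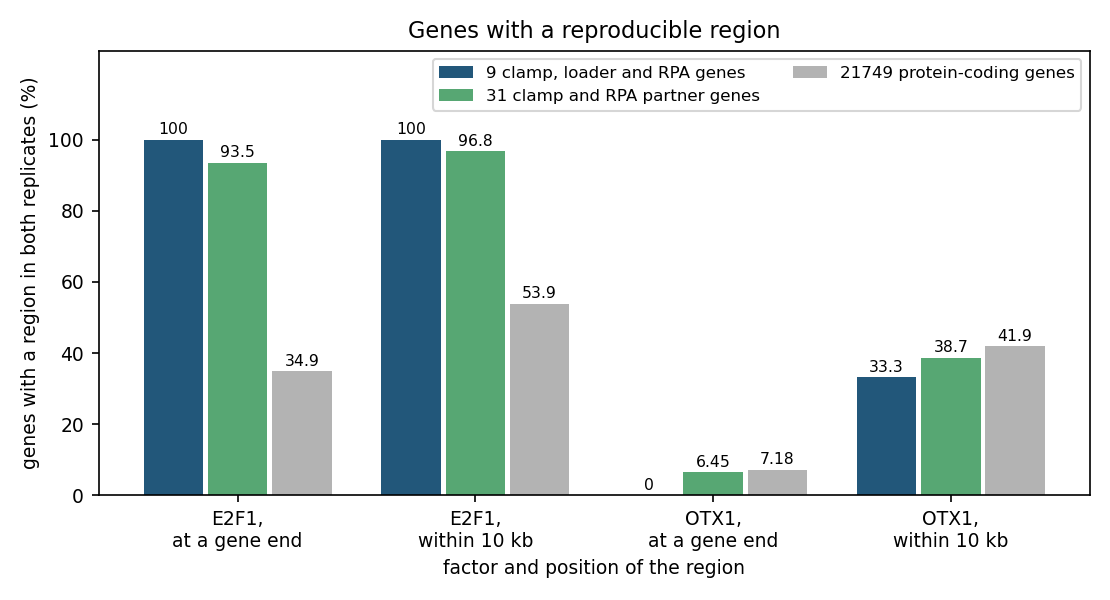
Percentage of genes with a region in both replicates, by factor and position (x axis), for the 9 genes (dark blue), 31 partner genes of the clamp and RPA (green) and all 21749 protein-coding genes (grey). The E2F1 bars of the 9 genes stand at 100% at gene ends and within 10 kb, and their OTX1 bars at 0% and 33.3%.

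These calls depended on one setting. When peaks with a local background above 2 times the lowest of their list were left out, rpa2 was the only gene of the 9 to keep an E2F1 region, at its end (against 11.3% of all genes) or within 10 kb (against 24.5%). The share of 1 in 9, or 11.1%, was then near that of all genes at ends and below it within 10 kb. That filter took out 42.1% and 38.7% of E2F1 peaks. Those taken out were tall, with a median of 25 and 28 fragments at the summit against 12 and 13 for the others. Among the 6798 E2F1 regions at gene ends, 59.1% and 62.8% of the peaks lay above that limit in replicates 1 and 2.

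The fold of a peak is the authors' own value and sets the fragments at its summit against a local background. It is used here to describe and rank peaks within a list and, as the mean of both lists, to order the genes. Across the 9 genes, the fold of the strongest region at an end ran from 6.75 to 11.8 in replicate 1 (median 8.71) and from 5.81 to 14.6 in replicate 2 (median 9.76). The medians of all E2F1 regions at gene ends were 6.16 and 6.72. In replicate 1, 9 of the 9 genes stood above the 50th percentile of those regions, and in replicate 2 it was 8, with rpa2 below it.

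The clamp itself came first in breadth. The E2F1 peak at pcna spanned 1181 bp in replicate 1 and 1175 bp in replicate 2, at the 98.6th and 98.4th percentiles of width in those lists (chromosome 3, 123023125 to 123024313 on the build xenTr10). The gene runs from 123023407 to 123027549, and the summits lay 35 and 51 bp inside its lower-coordinate end. The summits held 74 and 94 fragments over a local background of 7.61 and 8.23, which gave folds of 8.71 and 10.3. By fragments pcna stood among the 3 tallest of the 9 genes, beside rfc1 and rpa1, while by mean fold it was the fifth. Its local background was 6.76 and 6.59 times the lowest of the lists, and what part this has in the fold was not tested.

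A second, weaker E2F1 region lay beyond the other end of pcna. Its summits were 2496 bp past that end in replicate 1 and 2702 bp in replicate 2, with folds of 5.86 and 4.37. They rested on 16 and 15 fragments. The region (123029840 to 123030436) spans the nearer end of the next gene, tmem230, which lies at 123030119. Its summit was 74 bp from that end. Replicate 2 alone listed a further E2F1 peak 9943 bp from pcna on the other side, with a fold of 4.72 from 12 fragments.

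Within the clamp loader, the strongest E2F1 region belonged to rfc1, which encodes the large subunit. Its peaks had folds of 11.8 and 14.6 and held 77 and 116 fragments (chromosome 1, 36059097 to 36059865). These were the highest folds of the 9 genes in both lists, at the 95.2nd and 97.8th percentiles of E2F1 regions at gene ends. The summits lay 123 and 128 bp inside the upper-coordinate end of the gene, which runs from 36027070 to 36059583. At the opposite end, where the neighbour wdr19 stops 355 bp away, neither E2F1 list held a peak. The next E2F1 peaks outside the gene were 92204 and 92125 bp off.

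Rfc2, rfc3, rfc4 and rfc5 encode the small subunits, the partners of RFC1 in the loader. The region at rfc5 was the closest match between replicates, with folds of 11.02 and 11.03 from 49 and 55 fragments (chromosome 1, 165241215 to 165241928, 121 and 134 bp inside the gene's lower-coordinate end). It ranked behind rfc1, and the values of these genes did not overlap. The region at rfc3 had folds of 10.03 and 9.003 from 30 and 31 fragments (chromosome 2, 152784913 to 152785362, with the summits 116 and 164 bp inside the upper-coordinate end). Its peaks were 422 and 438 bp wide, the narrowest in each list among the strongest regions of the 9 genes.

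Rfc4 had folds of 8.25 and 9.76 from 32 and 40 fragments, with summits 10 bp inside and 5 bp outside its lower-coordinate end (chromosome 5, 105886704 to 105887238). A second region lay inside the gene, 2238 and 2198 bp from the same end, with folds of 5.18 and 5.75. It was the only reproducible region of either factor that lay inside one of the 9 genes and farther than 1 kb from its ends, apart from an OTX1 region in rpa1. Rfc2 had folds of 8.61 and 7.14 from 36 and 29 fragments (chromosome 2, 100904552 to 100905151). The region also covers the end of clip2, which stops 26 bp before rfc2 begins in the annotation, with the summit 83 bp from it. The data do not tell which of these genes the region belongs to.

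The RPA genes held both strong and weak regions. The region at rpa1, the gene of the large DNA-binding subunit, had folds of 9.59 and 10.5 from 78 and 101 fragments (chromosome 2, 36044843 to 36045912). Its peaks were 981 and 1070 bp wide, and its summits lay 158 and 139 bp beyond the gene's upper-coordinate end. The next gene, smyd4, begins 164 bp after rpa1, and the summit was 26 bp from that end, nearer than to rpa1. Together with rfc2, this made 2 of the 9 strongest regions that lay within 1 kb of the end of another gene, or 22.2%, against 13.7% of all E2F1 regions at gene ends.

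Rpa3, the gene of the smallest subunit, differed most between replicates. Its peak had a fold of 6.75 from 30 fragments in replicate 1 and of 9.70 from 39 fragments in replicate 2 (chromosome 6, 34390016 to 34390616). The summits lay 21 bp inside and 22 bp outside its upper-coordinate end.

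Rpa2, the gene of the middle subunit, which is phosphorylated in the cell cycle and after DNA damage, had the weakest main region. Its folds were 7.07 and 5.81 from 22 and 18 fragments (chromosome 2, 79455693 to 79456491). A separate region lay at its opposite end, 284 and 442 bp inside the gene (79463220 to 79463653), with folds of 4.45 and 4.41 from 10 and 10 fragments. Rpa2 was the only one of the 9 genes with E2F1 at both ends. This was the case for 83 of all genes (0.382%), which are among the 7596 genes with E2F1 at an end. It was also the case for 1 of the 31 partner genes, rad1. The second region of rpa2 had a −log10 q of 3.79 and 3.80. It lay 798 bp from the end of the neighbouring gene themis2, and its peaks, 268 and 258 bp wide, were among the narrowest of their lists.

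**Figure D2:**
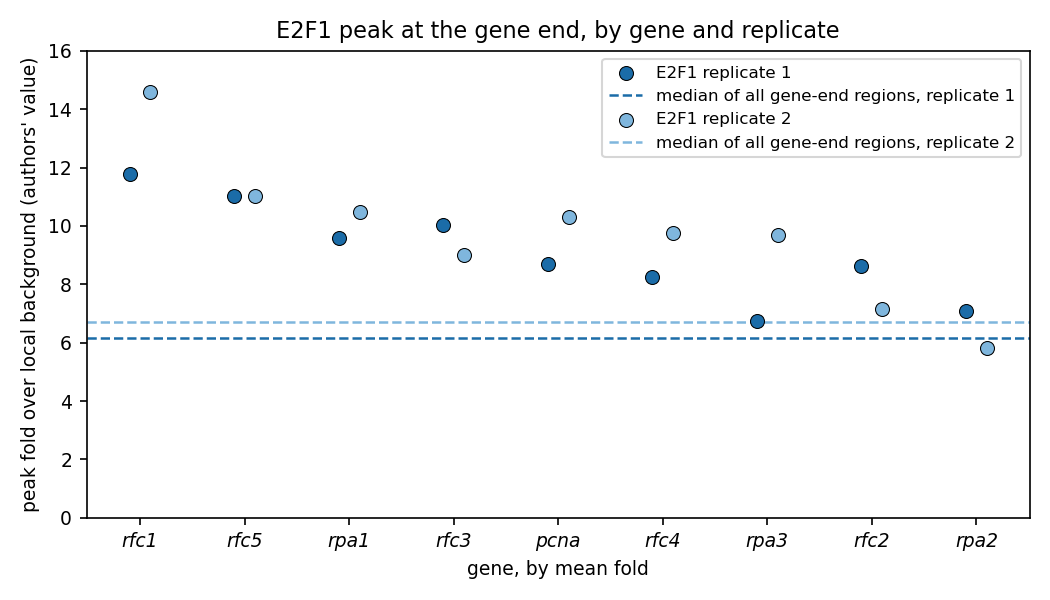
Fold over the local background (y axis, the authors' value) of the strongest E2F1 peak at an end of each of the 9 genes (x axis, by mean fold), with 1 point per replicate and dashed lines at the medians of all E2F1 gene-end regions, 6.16 and 6.72. Rfc1 leads with 11.8 and 14.6, and rpa2 is lowest by mean fold with 7.07 and 5.81.

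Ordered by mean fold, the genes ran rfc1 (13.2 ± 1.997, SD, n = 2), rfc5 (11.03 ± 0.00877), rpa1 (10.04 ± 0.637), rfc3 (9.52 ± 0.727), pcna (9.50 ± 1.12), rfc4 (9.01 ± 1.07), rpa3 (8.23 ± 2.09), rfc2 (7.88 ± 1.04) and rpa2 (6.44 ± 0.894). From rpa1 down to rfc2, the values of each neighbouring pair in this order overlapped, so their order is not resolved. The other steps did not overlap, but 2 values per gene do not measure the counting error, and no step was tested. Loader and RPA genes were mixed along it. Replicate 2 gave the higher fold at 6 genes and replicate 1 at 3.

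The local background differed widely among these peaks. The lowest background of any E2F1 peak was 1.13 and 1.25 fragments in replicates 1 and 2. At rpa2 it was 2.25 and 2.27 fragments, and at rfc3 it was 2.09 and 2.55. The 3 tallest peaks had the highest backgrounds, with 5.63 and 7.02 fragments at rfc1, 7.24 and 8.72 at rpa1 and 7.61 and 8.23 at pcna. No source used here says whether this background came from a control library or from the precipitated sample itself, and its part in the folds was not tested.

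**Figure D3:**
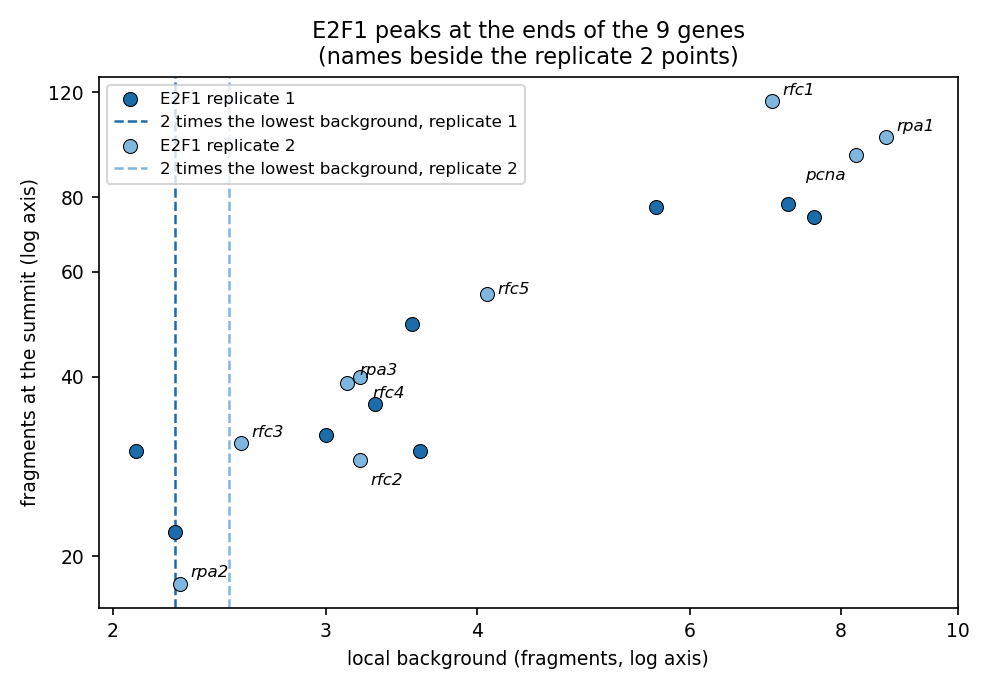
Fragments at the summit (y axis, log scale) against the local background in fragments (x axis, log scale) for the strongest E2F1 peak at an end of each of the 9 genes, 1 point per gene and replicate, with names beside the replicate 2 points. The dashed lines mark 2 times the lowest background of each list; rpa2 lies just under its line in replicate 1 and below it in replicate 2, and rfc1, rpa1 and pcna lie at the upper right.

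By the rule of both replicates, none of the 9 genes had a reproducible OTX1 region within 1 kb of an end, against 7.18% of all protein-coding genes. In the separate lists the number of genes with a peak at an end was 9 and 9 for E2F1 and 1 and 1 for OTX1. The 9 genes were chosen with results of these data known, so a test on them cannot decide between the factors. The difference of 8 genes had an exact two-sided permutation p = 0.333, the smallest that 2 against 2 lists allow, and tag, antibody and calling threshold differ together with the factor. Without peaks in a high local background it fell to 0.5 genes (exact permutation p = 1).

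The 2 OTX1 peaks at an end were each in 1 list, and each lay inside an E2F1 region. At rpa1, OTX1 replicate 1 listed a peak 699 bp beyond the end with a fold of 3.43 from 11 fragments, at the 2.04th percentile of fold in its list. At pcna, OTX1 replicate 2 listed a peak 687 bp inside the gene with a fold of 6.06 from 17 fragments. The share of genes with an OTX1 peak at an end was 12.6% and 11.8% of all genes in replicates 1 and 2. With 2 of 9, or 22.2%, the strongest E2F1 regions of these genes overlapped an OTX1 peak of either list about as often as all E2F1 regions at gene ends, of which 23.2% did. No gene of the 9 had a reproducible E2F1 region overlapping a reproducible OTX1 region within 10 kb, against 12.4% of all genes. The 2704 genes of that share are among the 11727 with an E2F1 region within 10 kb, to which all of the 9 belong.

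Farther out, 3 of the 9 genes had a reproducible OTX1 region within 10 kb, a share of 33.3% against 41.9% of all genes. The strongest was at rfc5, with folds of 6.93 and 8.78 from 36 and 38 fragments (chromosome 1, 165240186 to 165240725). Its summits lay 1035 and 1025 bp outside the same end that carried E2F1, just beyond the 1 kb limit, and the OTX1 and E2F1 regions were separated by 489 bp. Their summits were 1146 bp apart, the closest approach of the factors' regions at any of the 9 genes.

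At rfc2 the OTX1 region was 4126 and 4091 bp outside the E2F1-bearing end, inside the neighbour clip2, with folds of 4.26 and 7.90 from 15 and 25 fragments (chromosome 2, 100900532 to 100900856). The replicates differed most there among these OTX1 regions. At rpa1 the OTX1 region lay deep inside the gene, 17277 and 17312 bp from its upper-coordinate end, with folds of 6.04 and 6.996 from 15 and 17 fragments (chromosome 2, 36027644 to 36028002).

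Other OTX1 peaks were in 1 list or did not meet. Near pcna each OTX1 list held a peak on the side of the E2F1-bearing end, at 5672 bp with a fold of 4.56 in replicate 1 and at 5904 bp with a fold of 8.92 in replicate 2. These peaks missed each other by 13 bp, so they did not count as a region, although their summits were only 232 bp apart. Replicate 1 alone had a peak inside rfc1 (fold 3.79, 12 fragments) and one 7352 bp from rfc3 (fold 4.13, 10 fragments). No OTX1 peak of either list lay within 10 kb of rfc4, rpa2 or rpa3. The nearest left out by the 10 kb limit was 10985 bp from rpa3, in replicate 1, with a fold of 4.56.

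**Figure D4:**
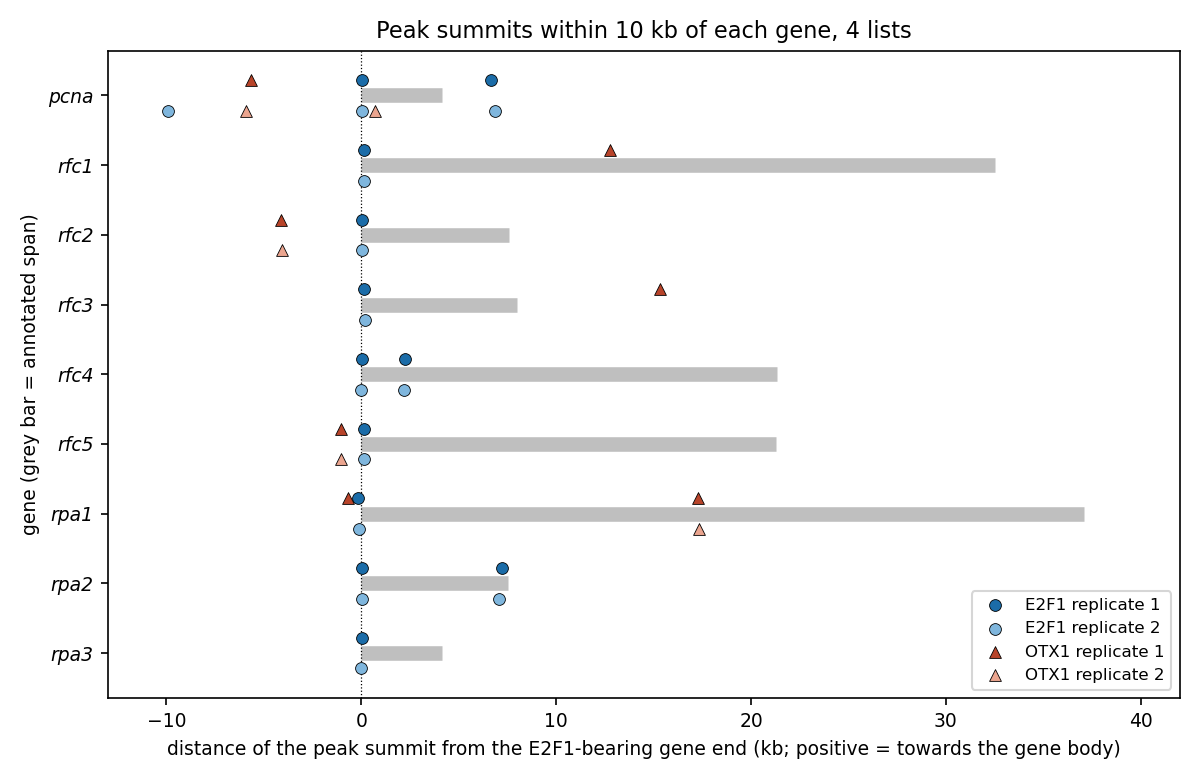
Distance of each peak summit from the gene end that carries the strongest E2F1 region, in kb, positive towards the gene body (x axis), for each of the 9 genes (y axis), with circles for E2F1, triangles for OTX1, dark for replicate 1, light for replicate 2 and grey bars for the annotated span. E2F1 circles of both replicates sit within 0.2 kb of 0 in every row, and the OTX1 triangles lie to either side or are missing.

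In all, E2F1 had 12 and 13 peaks within 10 kb of the 9 genes, and OTX1 had 7 and 5. The lists differ in size and calling threshold, so these counts do not set the factors against each other. At least 2 reproducible E2F1 regions were found at 3 of the 9 genes, pcna, rfc4 and rpa2, a share of 33.3%. Over all genes it was 16.5%, and among the 7596 genes with E2F1 at an end it was 33.9%.

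Most genes for partners of the clamp and of RPA also carried E2F1 at an end. In a list of 31 such genes, 29 (93.5%) had a reproducible E2F1 region at an end, and 2 (6.45%) had OTX1 there. The list is described by its counts alone, beside the 34.9% and 7.18% of all genes. Without peaks in a high local background, 5 of the 31 kept an E2F1 region at an end (rad9b, rad1, chaf1b, etaa1 and rfwd3), against 11.3% of all genes. The counts by role below therefore hold only with those peaks, and some also fell under other, stricter settings.

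All 5 genes of the alternative clamp loaders carried E2F1 at an end. The strongest was atad5, whose product unloads PCNA, with folds of 17.5 and 18.6, above all members of the clamp and loader set. The weakest was chtf8, part of the loader that also serves sister chromatid cohesion, with 6.16 and 5.64. Of the 5 genes linked to the 9-1-1 clamp, the checkpoint ring that resembles PCNA, 4 carried E2F1. Rhno1 led them with folds of 11.4 and 11.4, and rad9b was lowest with 4.40 and 3.53. Rad9a had no reproducible region, with an E2F1 peak at an end in replicate 2 alone.

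All 11 genes of PCNA partners carried E2F1 at an end. Exo1, a nuclease of mismatch repair, had the highest folds, 14.0 and 15.2, and pclaf, a small PCNA-binding protein, the lowest, 7.39 and 8.40. Of the 10 genes of RPA partners, 9 did, from xpa, which recognises damage in nucleotide excision repair (12.2 and 12.6), down to rpain, which carries RPA into the nucleus. Rpain ranked lowest by its mean of 3.44 and 4.64. Timeless, of the fork protection complex, had none at an end, and the summit of the nearest reproducible E2F1 region was 2444 bp from an end. The OTX1 regions of the list were at hus1 (folds 4.08 and 6.14) and chaf1a (5.67 and 4.66), both of which carried E2F1 as well.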

How the data were processed

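Each sample came with its own deposited peak list, so replicates were compared as separate lists. The submitters' processing notes name MACS2 2.2.7.1, Bowtie2 2.4.5, deepTools and fastp, without roles, and no source used here mentions a control library. The deposited lists hold, per peak, the authors' fold over local background (a ratio), −log10 p-values and −log10 q-values, and a score derived from the q-value. The build, xenTr10, stands in the OTX1 peak names, and chromosome names were shared by all lists. Gene spans came from a RefSeq table of UCB_Xtro_10.0 without strand, exons or sequence, so either annotated end counted as a gene end, and "lower" and "upper" refer to coordinates (1-based). The planned motif search and the 5′ end alternative were not run.

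Replicate peaks sharing at least 1 bp were joined into regions, whose summit came from the peak ranking higher by fold in its own list. A gene counted at its end for a summit within 1 kb, and within 10 kb for any peak base. Whole fragments at the summit and the background were solved from fold and p, to within 4.56e-05 of the deposited −log10 p (the next best whole number missed by at least 0.00708). Scripts ran in Python 3.11.15 with SciPy 1.17.1 and were tested on simulated data. The members, lists and tests were chosen with earlier results of these data known. Named were all 9 members, the partner genes with the highest and lowest fold of each role and those without a call. Neighbouring genes were named where their end lies nearer to a region or within 1 kb of it. Further partner genes were named for an OTX1 peak at an end in either list or for E2F1 at both ends. Others were named as kept without peaks in a high local background. Wdr19 and the single-list peaks were added after their values were seen. Alternatives covered the q threshold, list size, replicate overlap, windows, local background and single replicates.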

Additional observations from a re-analysis of the deposited data

How the results depend on the processing

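The count of 9 genes with E2F1 at an end, and within 10 kb, held with a −log10 q of at least 5 or 2. It held too with lists of equal size, a reciprocal overlap of 50%, summits within 100 bp, the other windows and either replicate alone. Across these settings, 23.6% (summits within 100 bp) to 43.6% (5 kb window) of all genes were called at ends. Within 10 kb it was 41.2% (summits within 100 bp) to 64.4% (replicate 2 alone). Most genes, 53.9%, were called within 10 kb in the main setting too, so a count of 9 says less there than at ends. With peaks in a high local background left out, the member count fell to 1 (rpa2) at ends, against 11.3% of all genes. It was also 1 within 10 kb, against 24.5% of all genes. Under that setting the partner list fell from 29 to 5. Rfc3 was lost there through replicate 2 alone (2.05 times the lowest background). Rpa2 kept both regions, the main one just under the limit in replicate 1. The other members' folds could not be given under that filter. OTX1 at the members' ends rose from 0 to 2 (rfc2 and rfc5) in a 5 kb window, where 22% of all genes were called, and was 1 in each replicate alone (11.8% of all genes in replicate 2 and 12.6% in replicate 1). OTX1 within 10 kb rose from 3 to 5 in a 20 kb neighbourhood (52.7% of all genes) and ran from 4 to 6 in single replicates (54.6% and 55.2%). These counts stay near the shares of all genes. OTX1 within 10 kb fell to 2 with a −log10 q of at least 5 (32.2% of all genes) and with lists of equal size (29.8%), where rfc2 was lost. It was also 2 without peaks in a high local background (32.5%), where rfc5 was lost. Shared regions went from 0 to 1 in each replicate alone (pcna without replicate 1, rpa1 without replicate 2), against 20.5% and 19.1% of all genes. The OTX1 count of the partner list, 2, became 0 at a −log10 q of at least 5 (4.39% of all genes). It was also 0 with lists of equal size (3.82%) and with a 500 bp window (4.83%). It was 1 with a reciprocal overlap of 50% (5.37%) and without peaks in a high local background (5.17%). It was 6 with a 5 kb window (22%), and 3 and 9 in replicates 2 and 1 alone (11.8% and 12.6%). The wider windows and single lists admit more peaks by construction, and the stricter settings admit fewer. The cause of these shifts was not tested beyond that. With a replicate block, in which lists were exchanged only within a replicate number, the difference of 8 genes had p = 0.5 by exact permutation, the smallest value possible, against 0.333 without it. The labels tie nothing to the replicate number, so the block carries little meaning. The 5′ end alternative was not run. Depth limits the weak regions, such as the second one at rpa2 with 10 fragments in each list.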

Other observations

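The OTX1 replicates differed at the partner genes. In replicate 1, 9 of the 31 genes had an OTX1 peak at an end (chtf18, atad5, rad9a, hus1, rhno1, chaf1a, usp1, rpain and rfwd3), and in replicate 2 it was 3 (hus1, fen1 and chaf1a), while 12.6% and 11.8% of all genes did. Within 10 kb the counts were 19 (61.3%) and 17 (54.8%) of 31, near the 55.2% and 54.6% of all genes. For reproducible OTX1 regions within 10 kb it was 12 of 31 (38.7%), near the 41.9% of all genes. Over all genes, a reproducible OTX1 region within 10 kb was found at 49.5% of the 7596 genes with E2F1 at an end and at 37.7% of the 14153 without. Among the 9 clamp, loader and RPA genes the share was 33.3%, or 3 genes. In replicates 1 and 2 alone, 55.2% and 54.6% of all genes had an OTX1 peak within 10 kb.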
